A study of Homo sapiens with 28 samples.

Results

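Kelly is a human neuroblastoma cell line that carries an amplified MYCN gene. The libraries compared here came from Kelly cells given a synthetic mimic of the microRNA miR-485-3p and from Kelly cells given a scrambled, non-targeting control RNA. They were taken by the mimic named in their labels, 4 libraries against 4, and are 8 of the study's 28 libraries. Of the 30887 genes in the count table, 15058 passed a filter on low counts and were tested. Both groups were grown in RPMI medium with fetal bovine serum, reverse transfected with 25 nM of their RNA and Dharmafect 1, and harvested after 48 h. Total RNA went into stranded, poly(A)-selected TruSeq libraries. The remaining 20 libraries carried mimics of miR-1283, miR-1915-3p, miR-380-3p, miR-99b-5p or miR-100-3p, with 4 libraries each. Their levels are given only where they are named. All 28 libraries entered the count filter, the scaling and the estimate of spread behind every p-value of the main fit. All libraries are of 1 cell line, and the labels do not tell whether replicates were cultured separately. The p-values therefore measure the spread between libraries, pooled over all 7 groups. That pooled spread is not the spread of the miR-485-3p group alone. Libraries of this kind do not hold mature microRNAs, so the amount of mimic in the cells was not measured.

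MicroRNAs are short RNAs that guide Argonaute proteins to messenger RNAs. Pairing between the microRNA's seed, its bases 2 to 8 counted from the 5′ end, and a site in the 3′ untranslated region (UTR) usually lowers the messenger's level and its translation. A mimic raises 1 microRNA far above its usual level, so that messengers with its sites tend to fall. The gene for miR-485 lies in the imprinted 14q32 cluster, which is active in the nervous system.

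RefSeq (GRCh38.p14) places mature miR-485-3p at chr14:101055464-101055485 on the plus strand, and its seed is in capitals here because every site below was found from it.
miR-485-3p: gUCAUACAcggcucuccucucu
The complement of the seed in DNA letters is the heptamer TGTATGA, and the 6 bases that pair with positions 2 to 7 are the hexamer GTATGA. A heptamer followed by A is called an 8mer, a heptamer followed by another base a 7mer-m8, a hexamer with that A but without the base for position 8 a 7mer-A1, and a plain hexamer a 6mer. These are sites in the transcripts of genes that fell furthest or that the results below turn on, read from the longest annotated 3′ UTR (GENCODE v29, GRCh38). Each shows up to 30 transcript bases, with the heptamer in capitals and the coordinates of the heptamer.
NRAS, chr1:114707283-114707289, minus strand: gagcagatgccattttgtacaTGTATGAaa
NRAS, chr1:114704740-114704746, minus strand: agtactgacctaagatggaatTGTATGAac
RHOQ, chr2:46581604-46581610, plus strand: gggccatacctgaggagagaaTGTATGAga
MYCBP, chr1:38864626-38864632, minus strand: aaagacaatgaaaaatggtttTGTATGAct
TMEM119, chr12:108591469-108591475, minus strand: ccccaagtggtcacctccccgTGTATGAaa
ALDH18A1, chr10:95606046-95606052, minus strand: agcagtgatgcttgaaattttTGTATGAat
TSPAN3, chr15:77046161-77046167, minus strand: gaattagtgtgagtgtgttttTGTATGAat
SFXN1, chr5:175527683-175527689, plus strand: gaaagatacagtgataatgtgTGTATGAat
ELAVL2, chr9:23691710-23691716, minus strand: agaaaatacttttgagatcttTGTATGAaa
MAP2K1, chr15:66491443-66491449, plus strand: aacgtgtatagtgcctaaaatTGTATGAaa
NFYB, chr12:104119479-104119485, minus strand: ttgtacgagagtttgttgctcTGTATGAct
PPARGC1A, chr4:23792102-23792108, minus strand: tattgttgtggttttattcatTGTATGAaa
MET, chr7:116797058-116797064, plus strand: atagatgacattaagaaaattTGTATGAaa
CHGA, chr14:92935240-92935246, plus strand: actcctgactgtaacatattcTGTATGAac
The first line for NRAS is the site nearer the stop codon, 805 bases from it, and the second lies 3348 bases from it. Among these sites, an A follows the heptamer in NRAS, TMEM119, ALDH18A1, TSPAN3, SFXN1, ELAVL2, MAP2K1, PPARGC1A, MET and CHGA. The long noncoding RNA LINC00657 (now NORAD), which holds the Pumilio proteins, has 3 heptamers in its transcript and no coding sequence.
LINC00657, chr20:36049435-36049441, minus strand: ggatgttaaagaggttgccagTGTATGAca
LINC00657, chr20:36048840-36048846, minus strand: agatgttaaagaggttgccagTGTATGAca
LINC00657, chr20:36048237-36048243, minus strand: agatattaaagaggttgccaaTGTATGAca
The bases before the 3 heptamers are nearly the same in all 3.

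Library totals were 10992874 to 16668020 counts under the mimic and 13038954 to 15215130 in the control. Mimic replicate 2 stood apart: it was the shallowest, and its counts leaned most towards GC-rich transcripts, with a slope of log2 level on GC content of 3.04 against -0.89 to 1.15 in the other mimic libraries and -0.28 to 1.33 in the control. Mimic libraries also differed more among themselves than controls did, with a chi-square per degree of freedom of 9.48 to 36.8 against 2.89 to 7.93, and no 2 agreed within sampling noise. The mitochondrial share of counts was 6.16% to 9.69% under the mimic and 8.85% to 9.88% in the control. Markers of adrenergic neuroblastoma were present throughout, with MYCN at 52099 to 80320 counts and DBH at 14934 to 28169 in the 8 libraries. PECAM1, S100B, SOX10, ALB and KRT18, markers of endothelium, Schwann cells, liver and epithelium, were at 0 in all 8. Of the 22 markers of other cell types, 6 were tested. Their summed level was taken in counts per 1000000 counts of the library (CPM). It was 84.1 to 93.3 CPM in the control and 71.4 to 76.9 CPM under the mimic. VWF alone was called, lower at -1.25 ± 0.23 (adjusted p = 0.000224), and it rested on only 9 to 41 counts in the 8 libraries. The part of these differences between libraries in the results was not tested, except where a value without a library is given.

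Nearly equal numbers of genes fell and rose under the mimic, and the falls were deeper. In these bulk libraries fewer cells of a kind and less RNA per cell cannot be told apart. At an adjusted p under 0.05 (edgeR quasi-likelihood test, Benjamini-Hochberg over 15058 genes), 1602 genes were called lower (10.6%) and 1574 higher (10.5%), which together are 21.1% of those tested. A fall of at least 2-fold was called for 266 genes (1.77%) and a rise of at least 2-fold for 36 (0.239%). The median called fall was -0.57 and the median called rise 0.36 on the log2 scale, while the median over all tested genes was 0.02. Changes of less than 1.5-fold made up 834 of the called falls and 1362 of the called rises. All 4 mimic libraries lay below all 4 controls for 1305 of the called falls, and above them for 1140 of the called rises. Over all tested genes, called or not, the groups lay apart in either direction for 20.15%. Without mimic replicate 3 the count of rises was 889 and that of falls 1351, and without mimic replicate 5 the 2-fold rises numbered 55. Under upper-quartile scaling the split moved to 1188 higher and 1853 lower. A fit of the 8 libraries alone called 820 higher and 1180 lower.

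**Figure D1:**
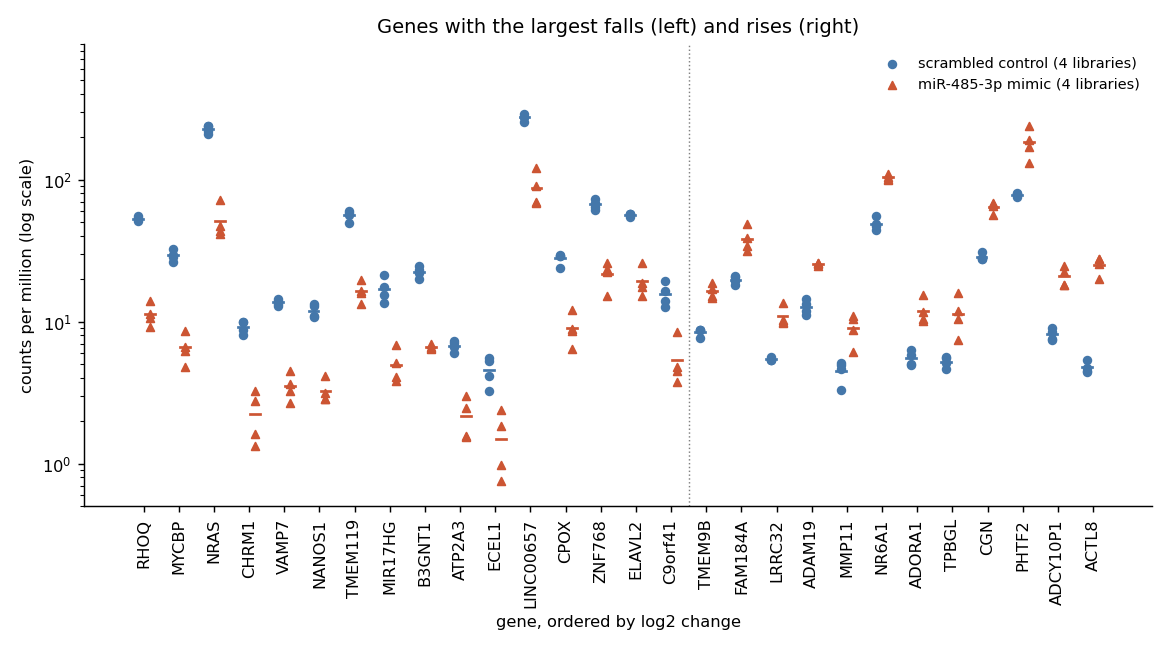
CPM (vertical, log scale) in each of the 4 control libraries (circles) and 4 miR-485-3p libraries (triangles) for the 16 largest falls and 12 largest rises by rule, with bars at the group means. The rule took only genes whose groups did not overlap, so the gap between circles and triangles was set by the choice. RHOQ sits at 50.8 to 55.2 CPM in control and 9.18 to 14.0 CPM under the mimic.

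Genes with a seed site in the 3′ UTR fell more often than the rest. A 3′ UTR of at least 50 bases was annotated for 12532 of the tested genes, of which 11.0% were called lower and 12.2% higher. A heptamer stood in the 3′ UTR of 1786 of them (14.2%), and 500 of these (28.0%) were called lower and 6.05% higher, with a median log2 change of -0.13. Among the 10746 without a heptamer, 8.21% were called lower and 13.2% higher, with a median of 0.06. By the strongest site in the 3′ UTR, the shares ran from the 757 genes with an 8mer, of which 37.8% were called lower at a median of -0.23, through 25.7% of 622 with a 7mer-A1 at best and 20.8% of 1029 with a 7mer-m8, to 10.4% of 911 with a 6mer. Genes with no hexamer, 9213 in all, were called lower in 6.81% and higher in 13.8%, at a median of 0.07. These shares are descriptions of the annotation against the calls, and genes with a heptamer had longer 3′ UTRs, at a median of 3240 bases against 1229.

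**Figure D2:**
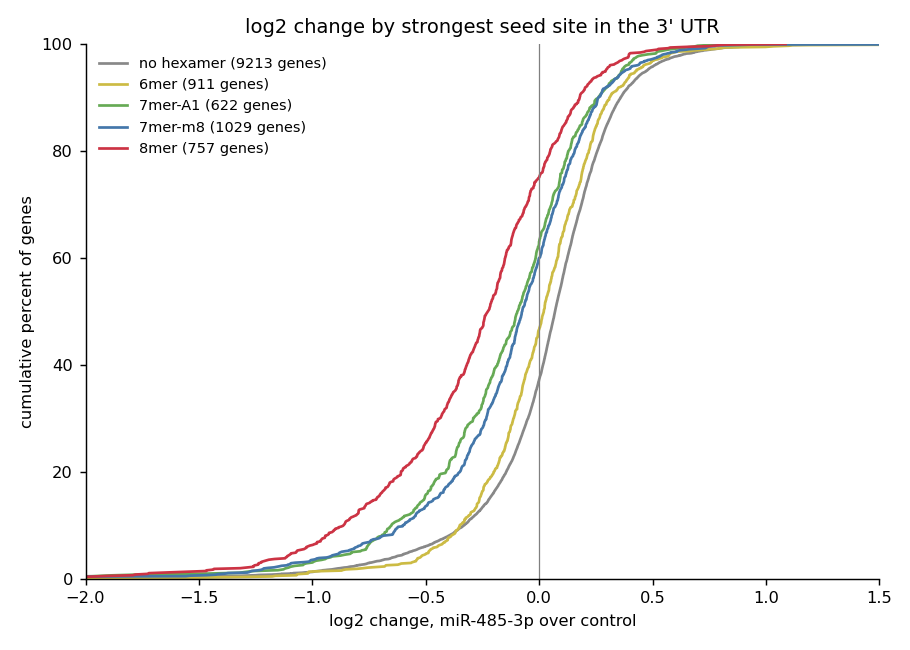
Cumulative percent of genes (vertical) at or below each log2 change (horizontal), with 1 curve for each class of the strongest miR-485-3p site in the 3′ UTR. The 8mer curve lies furthest left, with a median of -0.23, and the curve of genes with no hexamer lies right of 0, with a median of 0.07.

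The contrast held within each range of 3′ UTR length. In the shortest quartile, 50 to 618 bases, 36.5% of 74 genes with a heptamer were called lower against 6.43% of 3063 without. In the longest, 2833 to 32870 bases, the shares were 24.2% of 1014 and 9.82% of 2119. More sites went with more falls up to 3: 25.2% of 1470 genes with 1 heptamer, 40.9% of 252 with 2 and 42.6% of 54 with 3 were called lower, and 3 of the 10 genes with 4 or more. The share also varied with the position of the site. Of genes with a single 8mer within 500 bases of the stop codon, 46.7% of 107 were called lower, and of those with it over 3000 bases away, 17.0% of 106, in 3′ UTRs with medians of 1916 and 5928 bases. For a single 7mer-m8 the same shares were 25.2% of 202 and 11.2% of 188. Where A and U made up over 0.7 of the flanking bases, a single 7mer-m8 went with a call in 23.6% of 225 genes, and where they made up at most 0.5, in 14.2% of 141. For a single 8mer these shares were 35.7% of 168 and 29.8% of 57. The highest 8mer share, 37.3% of 201, was at over 0.6 to 0.7.

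**Figure D3:**
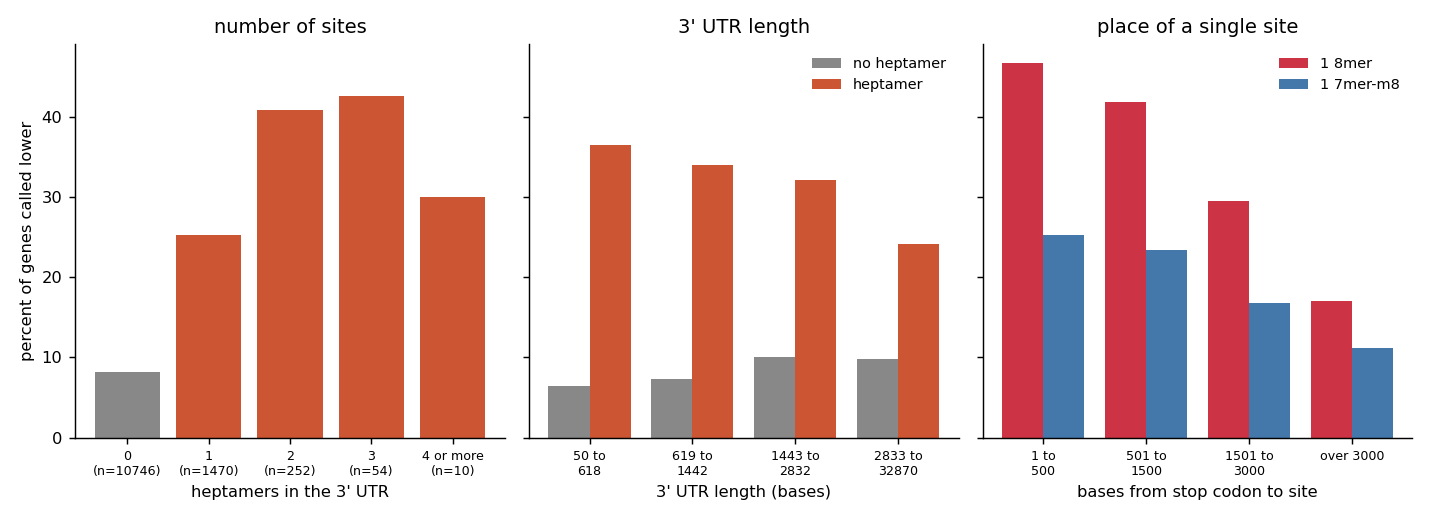
Percent of genes called lower (vertical) by number of heptamers in the 3′ UTR, by 3′ UTR length with and without a heptamer, and by distance of a single 8mer or 7mer-m8 from the stop codon. The share is 8.21% with no heptamer and 42.6% with 3, and falls from 46.7% to 17.0% for a single 8mer as it moves away from the stop codon.

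Heptamers outside the 3′ UTR were also counted. Among genes with no hexamer in the 3′ UTR, 6.21% of 8343 with no heptamer in the coding sequence were called lower, 11.4% of 769 with 1, and 20.8% of 101 with 2 or more. In the same set of genes, whatever their coding sequence held, a heptamer in the 5′ UTR was rare, and 4 of 31 such genes were called lower. Genes with no coding transcript were called lower in 8.09% of 1855 with no heptamer, 17.0% of 218 with 1 and 6 of 20 with 2 or more. Sites of the other strand of the hairpin, miR-485-5p, with heptamer CAGCCTC, stood in 2394 of the genes without a miR-485-3p hexamer, and 6.73% of those were called lower. The sites of the 5 other mimics gave shares between 5.79% and 7.14% in the same genes, near the 6.81% of all of them. Seen from the fallers, 500 of the 1382 with an annotated 3′ UTR (36.2%) had a heptamer there, 255 had only a 7mer-A1 or 6mer, 109 had a heptamer only in the coding sequence and 518 (37.5%) had none of these. Of the 1523 risers, 108 (7.09%) had a heptamer in the 3′ UTR.

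NRAS, a GTPase that passes growth factor signals to the RAF kinases, has 2 8mers and, at 226 ± 14.4 CPM (SD, n = 4), the highest control level of the coding genes among the 16 largest falls. It stood at 238, 239, 209 and 219 CPM in control replicates 1, 2, 4 and 5, and at 46.9, 43.4, 41.2 and 72.3 CPM in mimic replicates 1, 2, 3 and 5. The log2 change was -2.15 ± 0.13 (SE), at an adjusted p of 2.18e-12. RHOQ, a CDC42-like GTPase of vesicle traffic, has a single 7mer-m8 and the largest fall among called genes whose mean level reached 2 on the log2 CPM scale and whose groups did not overlap. Its controls read 55.2, 52.3, 50.8 and 53.5 CPM and its mimic libraries 11.3, 10.6, 9.18 and 13.97 CPM, a log2 change of -2.24 ± 0.11 (adjusted p = 4.48e-14), and its exons share bases with PIGF on the opposite strand. MYCBP, a MYC-binding protein, has its 7mer-m8 38 bases from the stop codon, and its exons are shared with the GJA9-MYCBP readthrough. It went from 29.3, 28.6, 32.6 and 26.2 CPM to 6.18, 6.66, 4.82 and 8.597 CPM (-2.16 ± 0.12, adjusted p = 8.23e-13). In all 3 genes mimic replicate 5 was the highest of the mimic libraries, and all 4 lay far below every control.

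ALDH18A1, which makes the first intermediate of proline synthesis from glutamate, had the smallest p of all called fallers with a heptamer. It fell from 152, 156, 141 and 153 CPM to 52.98, 52.6, 50.02 and 62.1 CPM (-1.47 ± 0.06, adjusted p = 6.62e-15). TSPAN3, a tetraspanin membrane protein, fell from 161, 153, 169 and 151 CPM to 75.96, 79.5, 76.7 and 76.2 CPM (-1.04 ± 0.05, adjusted p = 2.97e-13). In both, the 4 mimic libraries lay close together and far below the controls. SFXN1, the mitochondrial serine carrier, fell from 106 ± 6.75 to 44.3 ± 3.57 CPM (SD, n = 4, log2 change -1.25 ± 0.07, adjusted p = 2.18e-12) and has an 8mer and a 7mer-m8 that lie 135 bases apart. TMEM119, a membrane protein, fell from 56.1 ± 4.600 to 16.3 ± 2.61 CPM (-1.79 ± 0.12) with its 8mer 57 bases from the stop codon. The other fallers among the 12 with the smallest p and a heptamer were UBE2Q1 (-1.29 ± 0.08), a ubiquitin-conjugating enzyme, LYN (-1.37 ± 0.09), a SRC-family kinase, WLS (-1.10 ± 0.07), which carries Wnt proteins to the surface, POM121C (-1.27 ± 0.08), a nuclear pore protein, and SRSF8 (-0.93 ± 0.06), a splicing factor. POM121C and SRSF8 have near-identical relatives, so their counts are uncertain. Adjusted p for these 5 ran from 7.63e-12 for UBE2Q1 to 2.88e-11 for WLS, with LYN at 8.33e-12, SRSF8 at 7.68e-12 and POM121C at 1.45e-11.

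Among the other deep falls with heptamers were ELAVL2, a neuronal RNA-binding protein with 2 8mers and a 7mer-m8, CPOX, an enzyme of heme synthesis, and C9orf41 (now CARNMT1), a carnosine methyltransferase. ELAVL2 read 57.6, 57.2, 54.03 and 56.8 CPM in the control and 17.6, 15.2, 18.6 and 25.6 CPM under the mimic (-1.55 ± 0.11, adjusted p = 1.07e-10). CPOX fell from 27.8 ± 2.57 to 8.97 ± 2.34 CPM (-1.64 ± 0.14) and C9orf41 from 15.6 ± 2.89 to 5.36 ± 2.101 CPM (-1.54 ± 0.20). The controls of CPOX and C9orf41 lay above all their mimic libraries, which the rule for the 16 largest falls required. A 7mer-A1 was the strongest site in several others. NANOS1, a translational repressor of germ cells that works with Pumilio, has 2 and fell from 11.9 ± 1.35 to 3.24 ± 0.621 CPM (-1.89 ± 0.14). MMP2, a gelatinase, has 1 and read 138, 142, 149.9 and 135 CPM against 52.3, 61.2, 41.5 and 48.9 CPM (-1.47 ± 0.08, adjusted p = 2.97e-13). B3GNT1 (now B4GAT1), a glycosyltransferase that acts on dystroglycan, has 1 and fell from 22.3 ± 1.96 to 6.62 ± 0.216 CPM (-1.75 ± 0.15). VAMP7, a vesicle SNARE, lies in the pseudoautosomal region, and its estimated counts are split evenly over 2 copies. Each copy read 13.9, 14.4, 12.96 and 13.3 CPM in the control and 2.67, 3.65, 3.25 and 4.45 CPM under the mimic (-1.97 ± 0.12, adjusted p = 7.29e-12).

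Genes with 4 or more heptamers were not among the deepest falls, and 4 of the 10 were called. PDE10A, a cyclic nucleotide phosphodiesterase, has 5 and was at -0.46 ± 0.14 (adjusted p = 0.0158), a call lost without control replicate 1 or 5 or mimic replicate 1 or 2, with adjusted p of 0.0517 to 0.0667. CDH13, a cadherin, has 4 and fell from 4.05 ± 0.729 to 2.42 ± 0.469 CPM (-0.75 ± 0.16, adjusted p = 0.00142). MEMO1, a regulator of cell movement, has 4 and was at -0.22 ± 0.08 (adjusted p = 0.0387), a call lost without control replicate 1, 2 or 5 or mimic replicate 1 or 2, with adjusted p of 0.0612 to 0.113. LGALS8, a galectin, has 4 and was higher, at 0.51 ± 0.17 (adjusted p = 0.0349), with overlapping groups, and it kept its call only without mimic replicate 2 or 5 among the 8 omissions of 1 library, with adjusted p of 0.0594 to 0.211 in the others.

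Several of the deepest falls had no miR-485-3p heptamer in the annotated UTR. CHRM1, a muscarinic acetylcholine receptor, has no hexamer in its 3′ UTR and fell from 8.04, 8.67, 9.87 and 9.93 CPM to 1.63, 2.74, 1.34 and 3.22 CPM (-2.07 ± 0.25, adjusted p = 5.69e-07). ZNF768, a zinc finger protein, fell from 66.8 ± 5.54 to 21.7 ± 4.63 CPM (-1.63 ± 0.15), ATP2A3, a calcium pump, from 6.75 ± 0.574 to 2.15 ± 0.722 CPM (-1.67 ± 0.18) and ECEL1, a neuronal endopeptidase, from 4.54 ± 1.05 to 1.49 ± 0.754 CPM (-1.67 ± 0.27). ATP2A3 has 2 heptamers in its coding sequence. BLMH, the bleomycin hydrolase, has none of the sites counted and read 119.8, 118, 115 and 101 CPM against 52.1, 52.6, 52.7 and 54.7 CPM (-1.09 ± 0.07, adjusted p = 3.81e-12). For each of these 5 genes the groups did not overlap.

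Of 5 genes that the literature gives as miR-485-3p targets, all with a heptamer, 3 were called lower. NFYB, a subunit of the NF-Y factor that drives TOP2A, has 3 heptamers and fell from 39.9, 33.2, 31.5 and 33.7 CPM to 21.1, 19.4, 23.9 and 24.6 CPM (-0.63 ± 0.10, adjusted p = 5.41e-05). PPARGC1A, a coactivator of mitochondrial biogenesis, fell from 14.2 ± 2.200 to 7.48 ± 1.696 CPM (-0.93 ± 0.15, adjusted p = 6.32e-05). MET, the receptor of hepatocyte growth factor, fell from 24.3 ± 1.77 to 15.1 ± 3.03 CPM (-0.69 ± 0.12, adjusted p = 0.000183). NTRK3, a neurotrophin receptor, was nearly absent at 0.456 to 0.652 CPM in the control and 0.232 to 0.537 CPM under the mimic, and SLC40A1, the iron exporter, was at -0.36 ± 0.14 (adjusted p = 0.0561). SLC40A1 passed the threshold in 7 of 19 alternatives (adjusted p from 0.0247 to 0.304), among them the omission of mimic replicate 1 or 3 or control replicate 2. TOP2A, the topoisomerase poisoned by doxorubicin, read 519, 521, 523 and 523 CPM in the control and 576, 445, 673 and 629 CPM under the mimic (0.16 ± 0.09, adjusted p = 0.226), and was called in 2 of 19 alternatives, 1 of them the omission of mimic replicate 2 (0.27, adjusted p = 0.00974).

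The amplified oncogene MYCN was the most abundant of the genes fixed by name, at 3189 TPM (a level scaled for gene length and depth) in the control against 83.5 TPM for NRAS. It read 5119, 4790, 5021 and 5283 CPM in the control and 4255, 4754, 3827 and 4571 CPM under the mimic (-0.22 ± 0.08, adjusted p = 0.061). The highest mimic library, replicate 2, lay below the lowest control by a small margin, and MYCN passed the threshold in 8 of 19 alternatives, with adjusted p from 0.0104 to 0.142. The 8 included the omission of mimic replicate 2 (0.0331) or 5 (0.0293) and DESeq2 (0.0359). ALK was at -0.13 ± 0.10, IGF1R at -0.15 ± 0.09, MTOR at -0.00 ± 0.07, the drug exporter ABCC1 at 0.08 ± 0.06 and DICER1 at -0.25 ± 0.15, none called with adjusted p of 0.251 to 0.995. DICER1 was called lower in 3 of 19 alternatives, 1 of them the omission of mimic replicate 5 (-0.44, adjusted p = 0.0256).

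NRAS belongs to the RAS and MAPK cascade, in which RAS activates RAF, RAF the MEK kinases and MEK the ERK kinases. Of 25 members tested, 3 were called lower and 2 higher, with a median log2 change of 0.13. Over all tested genes 10.6% were called lower and 10.5% higher, so the cascade's counts are near the background. The same 2 shares are the background for every other list count. The fallers all have heptamers. MAP2K1, which encodes MEK1, has an 8mer and fell from 44.7, 46.7, 41.9 and 40.7 CPM to 18.7, 18.5, 18.4 and 19.96 CPM (-1.20 ± 0.10, adjusted p = 1.68e-09). SPRED2, an inhibitor that restrains RAF activation, has 2 heptamers and fell from 69.4 ± 1.11 to 51.1 ± 3.12 CPM (-0.44 ± 0.06). HRAS was at 0.10 ± 0.13 (adjusted p = 0.619). Per length, NRAS dropped from 83.5 to 19.2 TPM, while HRAS stood at 20.1 TPM in the control.

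Of 13 genes switched on by ERK signalling, 5 were called lower and 3 higher, at a median of -0.03, against 10.6% and 10.5% of all genes. EGR1, an immediate early factor, was at -2.36 ± 0.57 (adjusted p = 0.0034), but its controls ranged from 15.7 to 187 CPM and its mimic libraries from 2.92 to 28.6 CPM, and the groups overlapped. ETV1, an ETS factor with a heptamer of its own, fell from 51.1 ± 4.01 to 35.3 ± 6.34 CPM (-0.53 ± 0.12), and DUSP6, the ERK phosphatase, was at -0.43 ± 0.12 (adjusted p = 0.00857) with overlapping groups. Without control replicate 4 none of the 3 rises was called.

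**Figure D4:**
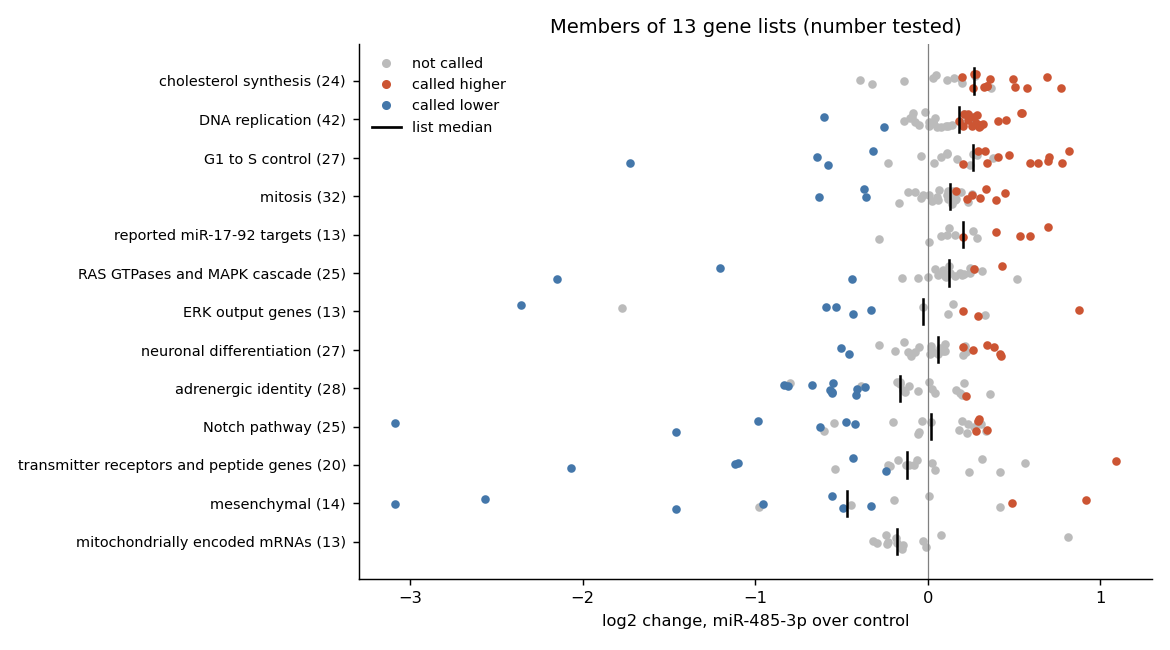
Each point is the log2 change (horizontal) of a tested member of 1 of 13 gene lists, coloured by its call, with a bar at the list's median. Cholesterol synthesis (median 0.27) and G1 to S control (0.26) lie to the right of 0, and the mesenchymal list (-0.47) to the left.

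MIR17HG, the host transcript of the miR-17-92 microRNA cluster and a MYCN target, fell from 21.4, 17.6, 15.4 and 13.6 CPM to 3.84, 5.11, 4.07 and 6.83 CPM (-1.78 ± 0.17, adjusted p = 1.47e-08). Every mimic library was below every control, and the annotated transcript holds no miR-485-3p heptamer or hexamer. Of 13 tested genes reported as miR-17-92 targets, 5 were called higher and 8 were not called, at a median of 0.21, beside 10.5% called higher and a median of 0.02 over all genes. They included E2F1 (0.70 ± 0.15), BCL2L11 (0.59 ± 0.10), which encodes the pro-apoptotic BIM, ZBTB4 (0.53 ± 0.10) and STAT3 (0.40 ± 0.05). LINC00657, which holds Pumilio proteins away from their targets and has 15 copies of their motif TGTANATA, fell from 274, 290.2, 254 and 277 CPM to 68.9, 68.6, 89.5 and 121 CPM (-1.65 ± 0.13, adjusted p = 6.63e-10). In the microRNA machinery list, which holds MIR17HG too, 3 of 20 were called higher and 3 lower, at a median of 0.03, and without mimic replicate 5 the falls numbered 5. The GW182 scaffolds split, with TNRC6C at 0.72 ± 0.10, TNRC6B at 0.58 ± 0.14 and TNRC6A at -0.30 ± 0.07. TNRC6A has 2 heptamers, both 7mer-m8, and TNRC6B, which rose, has an 8mer 9100 bases from its stop codon. Adjusted p for TNRC6C, TNRC6B and TNRC6A was 5.05e-06, 0.00291 and 0.00439, and the groups overlapped for TNRC6B.

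Genes of cholesterol synthesis rose in part. Of 24 tested, 13 were called higher and 11 were not called, at a median of 0.27, against 10.5% called higher and a median of 0.02 over all genes. DHCR7, a late enzyme of the pathway, read 53.1, 58.1, 65.1 and 58.4 CPM in the control and 96.1, 114, 98.8 and 70.9 CPM under the mimic (0.69 ± 0.12, adjusted p = 0.000177). MSMO1, a sterol oxidase, read 44.5, 45.6, 62.6 and 50.1 CPM against 76.5, 75.3, 119 and 75.9 CPM (0.77 ± 0.15, adjusted p = 0.000525), and ACAT2, which condenses acetyl-CoA, rose from 68.8 ± 3.97 to 97.4 ± 17.3 CPM (0.50 ± 0.09). Mimic replicate 3 was the highest library for MSMO1 by a wide margin. Without it 4 members were called higher and 2 lower, without control replicate 1 the count was 5 higher, and without control replicate 2 it was 8. In fatty acid synthesis 3 of 13 were called higher and 2 lower, with ACLY, which makes cytosolic acetyl-CoA, at 0.25 ± 0.05 and the elongase ELOVL1 at 0.59 ± 0.14.

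Genes of S phase entry and DNA replication rose in part. Of 27 tested genes of G1 to S control, 12 were called higher and 4 lower, at a median of 0.26. The shares over all genes were 10.5% and 10.6%, and the count of lower members is near that background. CCNE1, the cyclin that drives S phase entry, read 22.7, 25.2, 25.8 and 20.8 CPM in the control and 41.7, 41.2, 38.2 and 32.8 CPM under the mimic (0.70 ± 0.10, adjusted p = 9.13e-06). E2F2 rose from 68.4 ± 3.304 to 106 ± 14.1 CPM (0.64 ± 0.09), the phosphatase CDC25A from 113 ± 6.91 to 156 ± 13.9 CPM (0.47 ± 0.07), and CCND3, a D-type cyclin, was at 0.82 ± 0.14 and E2F5 at 0.59 ± 0.10. The 12 risers were not all drivers of S phase entry, as CDK inhibitors and repressors of E2F targets were among them too. Of the 4 fallers, CDKN1B, the CDK inhibitor p27, went from 71.1 ± 1.59 to 45.6 ± 6.68 CPM (-0.64 ± 0.09, adjusted p = 5.17e-06). E2F3, which has a heptamer, fell from 63.2 ± 4.53 to 42.3 ± 4.17 CPM (-0.58 ± 0.08). The count of lower members was 2 without mimic replicate 2 or 3 or control replicate 1 or 2.

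Of 42 DNA replication genes, 18 were called higher and 2 lower, at a median of 0.18, where 10.5% of all genes were called higher and 10.6% lower. RRM2, the small subunit of ribonucleotide reductase, rose from 398 ± 12.9 to 579.9 ± 44.8 CPM (0.54 ± 0.06, adjusted p = 4.85e-07), POLD3, a DNA polymerase delta subunit with a heptamer, was at 0.55 ± 0.07, and the single-strand binding subunits RPA2 and RPA1 were at 0.40 ± 0.06 and 0.30 ± 0.06. The larger subunits of chromatin assembly factor 1 diverged, as CHAF1A fell from 149.7 ± 5.25 to 98.7 ± 11.9 CPM (-0.60 ± 0.07) and CHAF1B rose by 0.29 ± 0.06. Without mimic replicate 3 the count was 10 higher. TYMS, thymidylate synthase, fell from 238, 249, 259 and 216 CPM to 129, 124, 123 and 135 CPM (-0.91 ± 0.07, adjusted p = 4.34e-10) and has no site of any class counted, while in its list of 18 folate cycle genes 3 were called higher, SHMT2 among them at 0.43 ± 0.10, and 2 lower. In mitosis 7 of 32 were called higher and 3 lower, with KIF2C at 0.30 ± 0.05 and BIRC5 at 0.40 ± 0.09 against AURKA at -0.63 ± 0.07 and BUB3 at -0.37 ± 0.08. The mitotic count of rises ran from 3 without mimic replicate 5 to 12 without mimic replicate 2.

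Genes that mark adrenergic neuroblastoma fell more often than they rose, with 10 of 28 called lower and 1 higher at a median of -0.16, against 10.6% called lower over all genes. CHGA, a granule protein with an 8mer 356 bases from its stop codon, read 3013, 3263, 3519 and 3445 CPM in the control and 1758, 2193, 1493 and 1974 CPM under the mimic (-0.84 ± 0.11, adjusted p = 5.25e-06). TFAP2B, a neural crest factor, fell from 206 ± 21.9 to 118 ± 6.003 CPM (-0.81 ± 0.14) and SCG2, a granule protein, from 30.1 ± 0.768 to 20.3 ± 1.88 CPM (-0.56 ± 0.11). The enzymes of noradrenaline synthesis were lower as well, with DDC at -0.42 ± 0.08 and DBH at -0.55 ± 0.13, both called. TH, the first enzyme, read 241, 272, 329 and 275 CPM against 154, 253, 93.8 and 143 CPM (-0.80 ± 0.29, adjusted p = 0.0539). Its groups overlapped. TH passed the threshold in 9 of 19 alternatives, with adjusted p from 1.71e-07 with the GC covariate to 0.166, and the omission of mimic replicate 2 was among the 9 (-1.10, adjusted p = 0.00953). Only CHGA among the 10 fallers has a heptamer in its 3′ UTR.

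The mesenchymal list was also lower, with 7 of 14 called lower and 2 higher at a median of -0.47, against 10.6% lower and 10.5% higher over all genes. The summed markers of other cell types were lower too, at 71.4 to 76.9 CPM against 84.1 to 93.3 CPM, and their part in this was not tested. NOTCH3, a Notch receptor, fell from 14.4 ± 1.88 to 5.29 ± 1.77 CPM (-1.46 ± 0.24, adjusted p = 5.72e-05) and ANXA2, an annexin, from 33.5 ± 2.07 to 17.3 ± 2.71 CPM (-0.96 ± 0.11). NOTCH2 was counted at 1.41 ± 0.152 CPM in the control and 0.151 ± 0.0848 CPM under the mimic (-3.09 ± 0.40), and near-identical copies make its count uncertain. PRRX1 was at 0.564 ± 0.232 CPM and 0.082 ± 0.095 CPM (-2.57 ± 0.59, adjusted p = 0.00233). The 2 risers were CD44, a hyaluronan receptor, from 16.2 ± 2.92 to 30.5 ± 7.699 CPM (0.92 ± 0.15), and THY1 at 0.49 ± 0.11. In the Notch pathway 6 of 25 were called lower and 4 higher (10.6% and 10.5% over all genes), at a median of 0.02, and 4 of the 6 fallers have a heptamer. They included NOTCH2, NUMB, an endocytic inhibitor of Notch (-0.62 ± 0.06), and ADAM17, a protease that cuts the receptors (-0.42 ± 0.09). HEY1, a Notch target, was at 0.34 ± 0.08. Without control replicate 4, 2 of the 4 rises in the pathway were called.

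Most other neuronal genes were not called. Of 27 neuronal differentiation genes 19 were not called, 6 were called higher and 2 lower, at a median of 0.06 and beside 10.5% higher and 10.6% lower over all genes, with NEFM, a neurofilament, at 0.42 ± 0.08, the synaptic vesicle protein SYP at 0.42 ± 0.10 and GAP43, a growth cone protein, at -0.46 ± 0.09. Without mimic replicate 3 the rises numbered 2, and 3 without mimic replicate 1 or 5 or control replicate 4. Of 20 transmitter receptor and peptide genes 5 were called lower and 1 higher, at a median of -0.12, where 10.6% and 10.5% of all genes were. They included CHRNA3, a nicotinic receptor subunit (-0.43 ± 0.05, adjusted p = 2.49e-07), beside CHRM1. The riser was the adenosine receptor ADORA1, at 6.299, 5.86, 4.97 and 5.06 CPM in the control and 10.2, 15.3, 11.6 and 10.4 CPM under the mimic (1.09 ± 0.15, adjusted p = 4.28e-06). REST, the repressor of neuronal genes, has an 8mer and fell from 5.26 ± 1.29 to 2.99 ± 0.502 CPM (-0.80 ± 0.19, adjusted p = 0.00249). At 14q32 the retrotransposon-derived RTL1 was the only 1 of 4 tested genes called, at -0.62 ± 0.14, and it lies antisense to microRNA genes.

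Among metabolic genes, 2 hexokinases, which phosphorylate glucose, moved apart. HK1 fell from 138, 141, 130.4 and 138 CPM to 68.5, 69.5, 51.4 and 72.1 CPM (-1.07 ± 0.08, adjusted p = 5.7e-11), and HK2 rose from 92.5, 96.98, 83.6 and 90.2 CPM to 148, 140.3, 157 and 133 CPM (0.67 ± 0.09, adjusted p = 7.95e-06). In the list of 28 hypoxia and glycolysis genes they came from, 3 were called higher and 2 lower, at a median of 0.06, which is near the 10.5% and 10.6% of all genes. Of 12 genes of proline and arginine synthesis, ALDH18A1 and PRODH, a proline oxidase (-1.44 ± 0.25), were lower and the arginase ARG2 (0.48 ± 0.09) higher. In amino acid and unfolded protein stress 5 of 24 were called lower and 2 higher, at a median of 0.02, with SEL1L, an adaptor of protein degradation that has an 8mer, at -0.91 ± 0.13, PSAT1, an enzyme of serine synthesis that has a 7mer-m8, at -0.49 ± 0.09 and the cystine carrier SLC7A11 at -0.73 ± 0.16. Of 23 PI3K and mTOR genes, RPS6KB1, the S6 kinase, has a heptamer and fell from 79.1 ± 3.62 to 41.7 ± 9.45 CPM (-0.92 ± 0.10), while the translation repressor EIF4EBP2 rose from 160.1 ± 7.64 to 234 ± 20.9 CPM (0.55 ± 0.08).

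In the lists on DNA damage and drug response most members were not called. Among 26 p53 targets 3 were called lower and 2 higher, at a median of 0.09. The fallers all have heptamers and included ZMAT3, an RNA-binding protein, with 2 8mers (-1.17 ± 0.11, adjusted p = 6.62e-09) and MDM2, the p53 ligase, with 1 (-0.42 ± 0.08, adjusted p = 0.000613). Of 30 double-strand break repair genes 6 were called higher and 3 lower, with RAD51C at 0.44 ± 0.07 against RAD54L at -0.49 ± 0.10. Without mimic replicate 3, 1 of the 6 rises was called, and without mimic replicate 1 or control replicate 1 or 2, 3 were. Of 18 genes of anthracycline action and handling 1 was called higher and 3 lower, NFYB and the quinone reductase NQO1 (-0.62 ± 0.16) among them. The BCL2 family had 1 riser, BCL2L11, and 1 faller among 14.

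Among called genes with a mean of at least 2 on the log2 CPM scale and groups apart, the largest rise was that of ACTL8, an actin-like gene of the testis, at 4.71, 5.401, 4.52 and 4.41 CPM in the control and 27.4, 25.3, 27.5 and 19.96 CPM under the mimic (2.40 ± 0.18, adjusted p = 1.5e-10). All 4 mimic libraries stood several times above every control. NR6A1, an orphan nuclear receptor, went from 44.4, 48.8, 46.8 and 55.2 CPM to 99.2, 101, 109.7 and 105 CPM (1.09 ± 0.10, adjusted p = 6.62e-09), and CGN, the tight junction protein cingulin, from 27.5, 27.7, 28.1 and 31.04 CPM to 68.1, 64.97, 67.5 and 56.6 CPM (1.17 ± 0.08, adjusted p = 3.37e-11). PHTF2, a membrane protein, rose from 78.1 ± 2.32 to 182 ± 44.96 CPM (1.22 ± 0.13) with the widest spread among mimic libraries of these genes, 130.1 to 238 CPM. ADAM19, a metalloprotease, rose from 12.7 ± 1.47 to 25.3 ± 0.655 CPM (1.00 ± 0.10) and LRRC32, which binds latent TGF-beta, from 5.42 ± 0.142 to 10.9 ± 1.71 CPM (1.00 ± 0.16). The pseudogene ADCY10P1, which has an 8mer in its longest transcript, rose from 8.13 ± 0.771 to 20.9 ± 3.23 CPM (1.36 ± 0.14). TPBGL (1.11 ± 0.19), MMP11 (1.01 ± 0.25), FAM184A (0.96 ± 0.13) and TMEM9B (0.96 ± 0.11) completed, with ADORA1, the 12 largest. None of the coding genes among them has a heptamer in its 3′ UTR.

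The difference from the other mimics was tested directly, by setting the 4 miR-485-3p libraries against the mean of the 5 other groups, which uses no control library. By that test 2332 genes (15.5%) were lower and 2826 (18.8%) higher under miR-485-3p. Among called genes, ALDH18A1 had the smallest p of the falls, at -1.55 ± 0.05 (adjusted p = 2.95e-17), followed by TSPAN3 at -1.14 ± 0.05, RHOQ at -2.16 ± 0.09, SFXN1 at -1.35 ± 0.06, MMP2 at -1.40 ± 0.07 and BLMH at -1.17 ± 0.06. Of the rises, ACTL8 led at 2.79 ± 0.12 (adjusted p = 1.01e-15), with NR6A1 at 1.13 ± 0.07, CGN at 0.89 ± 0.06, TPRG1L at 1.07 ± 0.06, ANKRD52, a phosphatase subunit, at 0.92 ± 0.06 and ADCY10P1 at 1.41 ± 0.10.

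The 6 mimics share their control libraries, so their changes against it are given side by side. RHOQ was at -0.04, -0.27, -0.03, -0.08 and 0.04 under miR-99b-5p, miR-380-3p, miR-100-3p, then miR-1915-3p and lastly miR-1283, in that order, against -2.24 under miR-485-3p. NRAS was at 0.03, -0.42, -0.03, -0.19 and 0.09 in the same order. For these 2 genes the deepest change under another mimic was that of miR-380-3p. MIR17HG was at 0.25, -0.77, -0.56, -0.16 and 0.03, and its values under miR-380-3p (adjusted p = 0.0016) and miR-100-3p (0.0315) were called too. TYMS was at 0.08, 0.04, -1.55, 0.04 and 0.05, deeper under miR-100-3p than under miR-485-3p. For 3 of the risers the value under miR-99b-5p was a called fall. ACTL8 was at -1.64, -0.18, 0.14, -0.27 and -0.04, NR6A1 at -1.30, 0.49, 0.45, -0.07 and 0.23 and TPRG1L, a gene of vesicle release, at -1.89, -0.06, -0.51, -0.22 and -0.00, and TPRG1L itself rose only by 0.53 ± 0.09 over control under miR-485-3p. Of the adrenergic genes, CHGA differed from the other mimics (-0.64 ± 0.09, adjusted p = 5.83e-06), while DBH (-0.18 ± 0.10, adjusted p = 0.172) and DDC (-0.01 ± 0.06, adjusted p = 0.908) did not pass that test. MYCN was at -0.01 ± 0.06 (adjusted p = 0.933) against the other mimics.

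**Figure D5:**
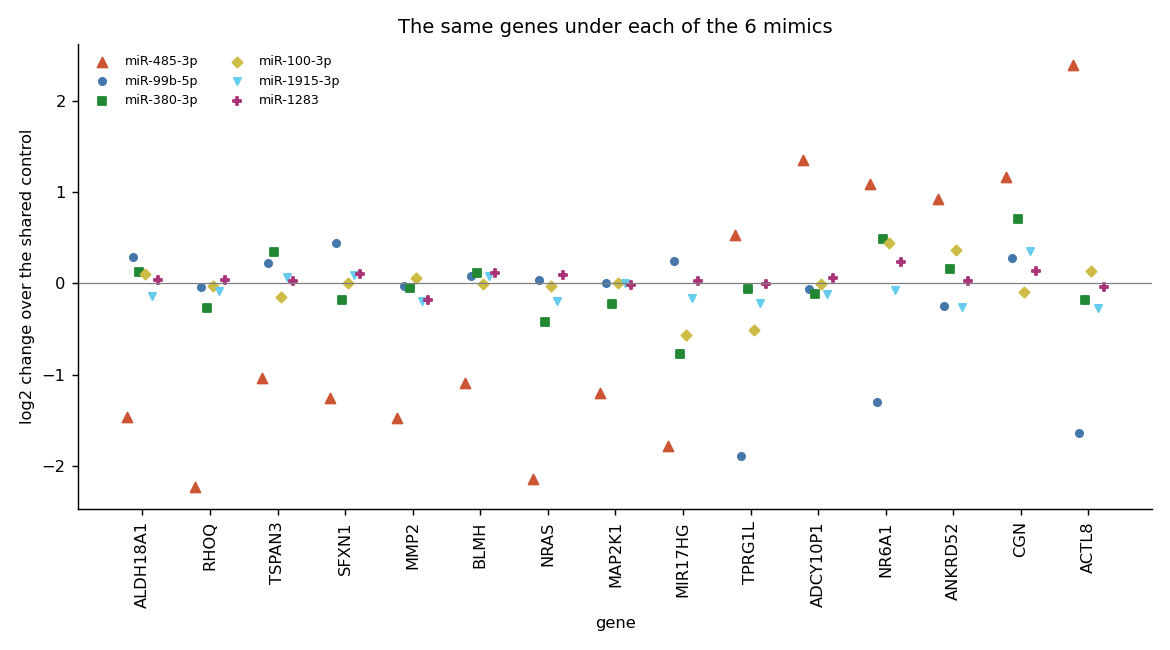
Fitted log2 change against the shared control (vertical) for 15 genes (horizontal) under each of the 6 mimics, 1 symbol per mimic. The miR-485-3p triangles lie between -2.24 and -1.04 for the 9 fallers, and NR6A1, ACTL8 and TPRG1L lie at -1.30, -1.64 and -1.89 under miR-99b-5p.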

How the data were processed

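The deposited table holds 1 column per library with expected counts per gene, which the authors made from reads aligned to hg19 with STAR, per the submitters' processing notes. The counting tool, the annotation and whether strand was used are not given in the sources used here. Values were rounded to whole numbers, and 15058 of 30887 genes passed filterByExpr. edgeR 4.0.16 (R 4.3.3) fitted all 28 libraries in 7 groups with TMM scaling and the quasi-likelihood test, with 21 residual degrees of freedom, and p-values were adjusted by the Benjamini-Hochberg method over all tested genes, with calls at 0.05. A second contrast set miR-485-3p against the mean of the other 5 mimics. CPM values are scaled by TMM library size, and TPM uses the gene lengths in the deposited table. DESeq2 1.42.0, limma 3.58.1, other scalings and filters, a GC covariate, a replicate block, a fit of 8 libraries and the omission of each library were the alternatives. Code was tested on simulated data.

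Sites were searched on the transcript strand of GENCODE v29 (GRCh38), a different build from the alignment, so hg19 gene models may differ. The members and gene lists were chosen with earlier results of these data known. Named genes were the 16 largest falls and 12 largest rises whose mean reached 2 on the log2 CPM scale and whose groups did not overlap, the 12 fallers with a heptamer and the smallest p, up to 5 called members of each list, 8 fixed genes and the reported targets, the 6 leading genes per direction against the other mimics, and the 4 called genes with most heptamers. CCND3, CHAF1B, DBH, E2F5, HEY1, HRAS, PRRX1 and TH were added after their values were seen, and some genes that the rule names are not reported here. Of 142 genes named, 47 share exonic bases with another gene, 41 of them on the opposite strand, so their counts are less certain.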

Additional observations from a re-analysis of the deposited data

Results flagged for a closer look

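In 14 of the 284 groups of 4 libraries tested over 142 named genes, 1 library lay far from the other 3 by Dixon's criterion, which chance meets in about 1 in 20 groups. MSMO1, a cholesterol enzyme, read 118.5 CPM in mimic replicate 3 against 75.3 to 76.5 CPM in the other mimic libraries. LYN read 75.3 CPM in mimic replicate 5 against 55.4 to 56.7 CPM, MAP2K1 read 19.96 CPM there against 18.4 to 18.7 CPM, and EIF4A1 read 838.8 CPM there against 917 to 923 CPM. LRRC32 read 13.41 CPM in mimic replicate 2 against 9.82 to 10.2 CPM.

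The other cases lay in the control. Control replicate 5 was high for CGN at 31.04 CPM, TNRC6B at 124.4 CPM and VTI1B at 92.21 CPM, where the other controls reached 28.1, 89.0 and 85.4 CPM. Control replicate 1 was low for ELOVL1 at 16.65 CPM and ZBTB4 at 18.39 CPM, below 18.6 and 21.3 CPM in the next library. Control replicate 2 was low for SLC40A1 at 6.694 CPM and TMEM9B at 7.607 CPM, and high for LRRC32 at 5.629 CPM. Control replicate 4 was low for CPOX at 23.96 CPM, where the others read 29.0 to 29.3 CPM.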

How the results depend on the processing

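Of 142 named genes, 131 kept their direction and their side of the threshold in every alternative, 4 lost a call in at least 1, 7 gained one, and none reversed. Many were named for small p-values, large changes or groups apart in these same data, so their stability was in part set by the choice. The count of rises moved to 820 with the 8 libraries alone, 931 with no filter and 2571 with the GC covariate, and ranged from 889 to 1805 with 1 library left out. Rises of at least 2-fold numbered 21 with the 8 libraries alone, 8 at a mean CPM of at least 5, and 29 to 55 with 1 library left out, and falls of at least 2-fold numbered 111 at a mean CPM of at least 5. The share of genes with a heptamer called lower was 23.65% with the 8 libraries alone, 31.69% with upper-quartile scaling, 33.25% at a mean CPM of at least 5, 36.23% with the GC covariate, 23.46% to 32.59% with 1 library left out, and 24.03% without both highest-GC libraries, an alternative chosen after seeing the data. Genes without a heptamer stayed between 5.99% and 12.6% over these fits. Other definitions of a site gave 22.75% for a hexamer, 37.78% for an 8mer and 18.66% for a heptamer in the coding sequence. Called cholesterol genes numbered 5 with the 8 libraries alone and 7 with no filter, and 4 to 13 with 1 library left out, and called DNA replication genes 9, 11 and 10 to 18. Mesenchymal falls numbered 4 at a mean CPM of at least 5. The cause of these shifts was not tested, beyond the fewer genes or libraries that some alternatives hold. With 10992874 counts in the shallowest library, genes near 1 CPM rest on few counts.

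Same-numbered mimic and control libraries deviated together with correlations of -0.09, -0.09 and 0.23, within the -0.33 to 0.35 of unlike-numbered libraries. The numbers were therefore not taken to pair them, but whether replicates shared handling was not tested. With the replicate block 1664 genes were called higher and 1836 lower, 32.64% of genes with a heptamer were called lower, ALK (adjusted p = 0.0457), DICER1 (0.031), IGF1R (0.0417) and SLC40A1 (0.029) passed the threshold, and LGALS8 (0.055) did not.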

Other observations

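RHOU, an atypical CDC42 relative, fell from 38.4 ± 1.76 to 19.7 ± 4.86 CPM (SD, n = 4, log2 change -0.96 ± 0.11), and RHOA, a regulator of actin fibres, fell from 326 ± 21.8 to 222 ± 10.1 CPM (-0.55 ± 0.07). PAK1, a kinase that binds RAC and CDC42, rose from 41.7 ± 1.298 to 54.1 ± 2.71 CPM (0.38 ± 0.06), and CDC42 itself rose from 186 ± 4.65 to 227 ± 14.98 CPM (0.28 ± 0.06). Of 29 vesicle SNAREs, 5 were called higher and 5 lower, at a median of 0.04, against 10.5% and 10.6% of all tested genes. The Golgi SNARE VTI1B fell from 87.02 ± 3.46 to 43.8 ± 8.87 CPM (-0.99 ± 0.09), but its exons overlap those of ARG2, which rose. SNAP29, a SNARE of membrane fusion, was at 0.51 ± 0.08 and STX12 at 0.42 ± 0.07. Without mimic replicate 3, 2 of the 5 SNARE rises were called.

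Of 30 MYC and MYCN targets 6 were called higher and 1 lower, at a median of 0.07, with the nucleolar methylase FBL at 0.26 ± 0.06 and the helicase EIF4A1 at -0.27 ± 0.06. In the MYC network MLX, a MAX-like partner, rose by 0.37 ± 0.07, and MYCBP was the single faller of 14. Of 13 interferon response genes IFIT1 alone was called, at -1.42 ± 0.23 (adjusted p = 6.22e-05), and it has a 7mer-m8 203 bases from its stop codon. At a mean CPM of at least 5 no member of that list was called. In the TGF-beta and BMP pathway 3 of 24 were called higher and 2 lower, ID2, an inhibitor of helix-loop-helix factors (-0.76 ± 0.09) and SMAD4 (-0.34 ± 0.10), whose call was lost without mimic replicate 1 or 2 or control replicate 2 (adjusted p of 0.0608 to 0.0799). None of those 3 rises was called without mimic replicate 3 or control replicate 2. The 13 mitochondrially encoded messengers had a median of -0.18, and none was called. Without mimic replicate 3 their median was -0.07.

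The Pumilio motif TGTANATA, searched on the transcript strand, was counted in the 3′ UTRs of the 9213 genes without a miR-485-3p hexamer. Of 7054 genes with no motif 12.3% were called higher, of 1540 with 1 motif 18.1%, and of 619 with 2 or more 20.0%. In the longest quartile of 3′ UTRs the same shares were 18.9%, 19.2% and 18.4%.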
